A study of Mus musculus with 6 samples.

Results

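NF-YA peaks at genes of the extracellular matrix and of cell adhesion were examined in activated, proliferating muscle stem cells (MuSCs), which reside beside the myofibre and regenerate skeletal muscle. The cells were cultured in vitro and came from wild type C57BL/6 mice, with no transgene or treatment named in the labels. CUT&RUN was performed with an antibody against NF-YA and with control IgG, in 3 libraries each. In this assay, micrococcal nuclease fused to protein A is recruited by the antibody on permeabilised cells, and the released DNA is sequenced. The IgG libraries were not analysed here. The NF-YA libraries are biological replicates according to the reporting summary of the study. By that summary, replicate 1 was sequenced with shorter reads and gave fewer mapped reads but more called peaks than replicates 2 and 3. How far this difference shaped the spread between libraries was not tested. The libraries measure occupancy, not expression, so the labelled cell type could not be checked against marker genes. They were made from many cells together, so occupancy in fewer cells and weaker occupancy in every cell cannot be told apart.

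Members were chosen by name alone. A peak was included if the authors had annotated it to *Fn1*, *Dag1*, *Sparc* or *Vcam1*, or to a gene whose symbol began like those of collagens, laminin chains, integrins, ADAM and ADAMTS proteases, matrix metalloproteinases, their inhibitors, cadherins, lysyl oxidases, thrombospondins or syndecans. This gave 35 peaks at 25 genes, which is 0.68% of the 5146 peaks with a gene symbol among 9056 peaks in all. All 35 peaks were annotated to protein-coding genes, on 13 chromosomes. The comparison group was the other 5111 peaks with a gene symbol.

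NF-Y is a heterotrimeric transcription factor of the subunits NF-YA, NF-YB and NF-YC. NF-YA makes the sequence-specific contact with the CCAAT box, which is typical of promoters of housekeeping and cell cycle genes and lies close upstream of the transcription start. The extracellular matrix of the MuSC niche contains laminins, collagens and fibronectin, which are held by integrins, dystroglycan and syndecans on the cell surface. Cadherins join the stem cell to the myofibre, and secreted or membrane-bound metalloproteinases remodel the matrix.

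The sequences that matter for the peaks described here are the CCAAT boxes beneath them. Each is given in mm10, 5′ to 3′ on the strand that reads CCAAT, with 10 bases on each side and the box in capitals. Boxes of the strongest peaks, of promoter peaks and of an exonic peak are shown, since the description of each peak turns on its box.
*Cdh15*, peak 3812 bp downstream of the gene start, chr8:122851762-122851786, minus strand: gagtgggtgcCCAATgggcaggcca
*Cdh15*, peak 2851 bp downstream, chr8:122850790-122850814, plus strand: gcaggcaggaCCAATctgatcggca
*Dag1*, promoter, chr9:108263980-108264004, minus strand: gcgtgacaggCCAATgggcagagag
*Col5a3*, promoter, chr9:20815175-20815199, minus strand: tctcagccagCCAATcagcgcgtgg
*Sparc*, upstream, chr11:55424005-55424029, minus strand: tgtcccctggCCAATgggaagatct
*Adamts14*, intron 1, chr10:61272324-61272348, minus strand: ggcctggaagCCAATgagctgtctt
*Adamts17*, promoter, distal box, chr7:66839609-66839633, plus strand: ccggccctaaCCAATacggacaggg
*Adamts17*, promoter, proximal box, chr7:66839650-66839674, plus strand: aagcaaaagcCCAATcaccgcctac
*Adam8*, promoter, chr7:139992565-139992589, plus strand: tcggaactggCCAATcactggaccg
*Adamtsl5*, exon, chr10:80342779-80342803, plus strand: ctgtcagaggCCAATcaggggaagc
*Fn1*, promoter, chr1:71653300-71653324, minus strand: ggactctgggCCAATaggcgcgcgg

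For 2 strong peaks within a gene, the 50 bases on each side of the centre are given on the strand of the gene, where a box of the opposite strand reads ATTGG. In *Cdh15*, chr8:122851728-122851828, plus strand, the box lay 4 bp from the peak centre.
*Cdh15* intron 1: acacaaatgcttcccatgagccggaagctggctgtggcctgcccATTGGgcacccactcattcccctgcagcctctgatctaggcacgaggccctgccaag
In *Col5a1*, chr2:27888924-27889024, plus strand, the box lay 19 bp from the centre, and another box lay outside these bases, 57 bp from the centre.
*Col5a1* intron 1: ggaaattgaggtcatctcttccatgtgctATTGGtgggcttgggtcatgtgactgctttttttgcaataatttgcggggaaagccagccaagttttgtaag

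Levels are given as normalised reads, meaning that the authors divided the reads of a peak by the size factor for its library and rounded the result. The 3 libraries held about 477155, 226924 and 334651 reads in all peaks. Replicate 2 thus had the fewest reads in peaks and replicate 1 had 2.1-fold more. These numbers are not sequencing depth, which was lowest in replicate 1 by the reporting summary. Replicates 1 to 3 gave 0.669, 1.48 and 1.02 normalised reads, respectively, for a single read. The median matrix and adhesion peak rested on about 19.4, 8.12 and 11.8 reads in the 3 libraries. A floor of 3 reads corresponds to 2.01, 4.43 and 3.06 normalised reads. At or below this floor were 1, 8 and 5 of the 35 peaks in replicates 1 to 3. Counting intervals and this floor cover counting error only.

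NF-YA peaks at matrix and adhesion genes mostly lay away from the annotated gene start. The peak centre was within 1000 bp of the gene start, here called a promoter peak, in 11 of 35 peaks (31.4%, 95% Wilson interval 18.6 to 48), whereas 68.4% of all peaks with a symbol were promoter peaks. The median distance from the gene start was 2905 bp, against 189 bp for the other peaks. Of the remaining 24 peaks, 14 lay more than 5000 bp from the gene start, up to 9888 bp. Centres were upstream of the gene start in 19 peaks and downstream in 16. By GENCODE M21, 19 centres lay outside the annotated gene, 12 in an intron, 2 in an untranslated exon, 1 in a coding exon and 1 in an exon of a noncoding transcript. In 6 peaks the interval included a start of a transcript of the gene itself. Counted from the start of any transcript of any gene, 15 of 35 centres (42.9%) were within 1000 bp, against 77.9% in the other peaks.

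In 5 peaks a transcript of another gene started within 1000 bp of the centre, so that the annotated gene is only one of the candidates. Both *Cdh24* peaks lay 303 and 741 bp from such starts, of *4930579G18Rik* and *Acin1*. The *Fn1* peak was 39 bp from a start of *Apol7d*, and the *Adam17* peak 135 bp from a start of *Gm49586*. Without these 5 peaks the promoter share was 26.7%.

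**Figure D1:**
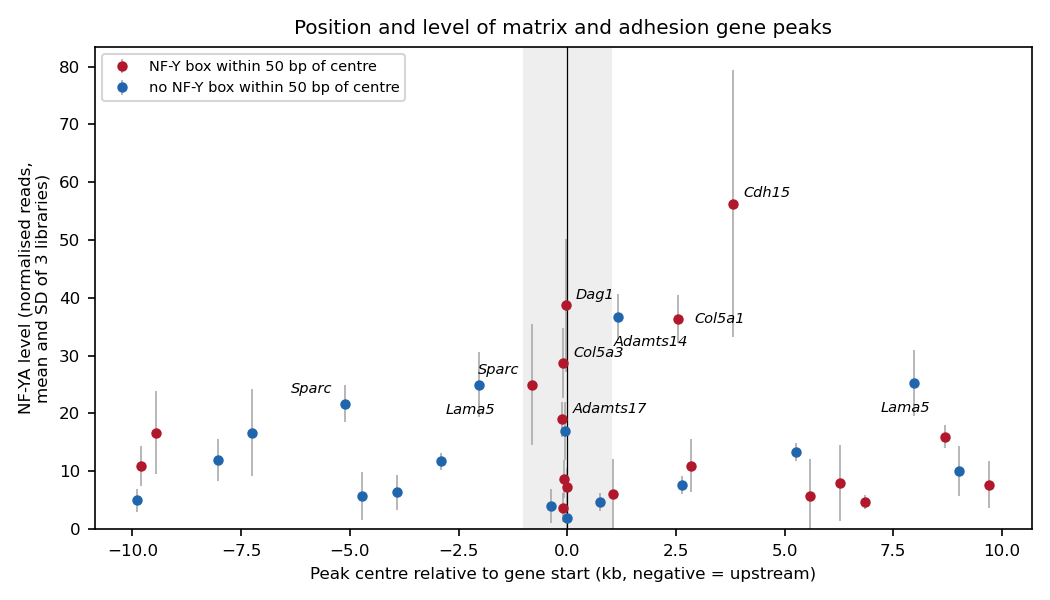
NF-YA level (normalised reads, mean and SD of 3 libraries) of the 35 peaks against the distance of the peak centre from the gene start in kb; the grey band marks 1000 bp on each side and red points have a CCAAT box within 50 bp of the centre. The highest point, *Cdh15* at 56.3, lies outside the band, and 11 points lie within it.

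Cadherins carried the highest level of the group. *Cdh15* (ENSMUSG00000031962) encodes M-cadherin, the calcium-dependent adhesion molecule by which MuSCs contact the myofibre, and had 2 peaks in intron 1, where the annotation also places the gene *Gm20388*. The peak at chr8:122851633-122851923, 3812 bp downstream of the gene start, reached 43, 83 and 43 normalised reads in replicates 1 to 3 (56.3 ± 23.1, SD, n = 3). Replicate 2 was thus 1.93-fold above the other libraries, and the peak ranked 1336th of the 5146 peaks with a symbol. The second peak, 2851 bp downstream of the start, had 10, 7 and 16 (11 ± 4.58). Values of the 2 *Cdh15* peaks did not overlap, with a log2 difference of 2.25 ± 1.03 (SD, n = 3 libraries). Both contained a CCAAT box within 50 bp of the centre. No peak was listed within 1000 bp of the *Cdh15* start, although its promoter window in RefSeq (250 bases before to 50 after the start) held 1 CCAAT box.

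The other cadherin peaks were weaker. Those annotated to *Cdh24*, a type II cadherin, lay 9450 and 9888 bp upstream of it, close to the starts named above. The first had 13, 12 and 25 normalised reads (16.7 ± 7.23) and 2 CCAAT boxes spaced 53 bp apart on the same strand. The second had 5, 3 and 7 (5 ± 2) and no CCAAT box, and the values of both peaks did not overlap. *Cdh2*, encoding N-cadherin, which also lies between stem cell and fibre, had a peak in an untranslated exon 754 bp downstream of its start with 5, 6 and 3 (4.67 ± 1.53). The third library of this *Cdh2* peak was at or below the floor. Of 23 annotated cadherin genes matching the rule, these 3 carried a peak, where 19.0% of all annotated protein-coding genes did.

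Among cell surface receptors, *Dag1* (ENSMUSG00000039952) had the highest level of any promoter peak annotated to a matrix or adhesion gene. It encodes dystroglycan, which binds laminin outside the cell and dystrophin within. The peak at chr9:108263831-108264160 spanned the gene start and had 27, 50 and 39 normalised reads (38.7 ± 11.5), highest in replicate 2 and lowest in replicate 1. Its CCAAT box was 3 bp from the peak centre and 34 bp upstream of the start, on the strand of the gene, and a second box lay 96 bp downstream of the start on the opposite strand. The window of 50 bp on each side of the centre also contained 3 GC boxes. *Sdc4*, encoding the heparan sulfate proteoglycan syndecan 4 of the MuSC surface, had a peak in intron 1, 2647 bp downstream of the start, with 9, 6 and 8 (7.67 ± 1.53). Its CCAAT box was 73 bp from the centre. No peak was annotated to *Vcam1* or *Sdc3*, which also encode surface proteins of MuSCs.

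Collagen genes carried 5 peaks at 4 of 44 genes (9.09%), against 19.0% of all protein-coding genes. *Col5a1* and *Col5a3* encode chains of the fibrillar type V collagen and had the highest levels. The *Col5a1* peak at chr2:27888826-27889122 in intron 1, 2549 bp downstream of the start, had 35, 41 and 33 normalised reads (36.3 ± 4.16). This spread was below the 6.19 given by counting alone. The *Col5a3* peak at chr9:20814999-20815309 spanned its start and had 23, 35 and 28 (28.7 ± 6.03). Its CCAAT box was 120 bp upstream of the start on the strand of the gene. The levels of these 2 type V collagen peaks overlapped.

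*Col1a1*, encoding a chain of the major fibrillar collagen, had 2 distal upstream peaks. The peak 7246 bp upstream had 9, 24 and 17 (16.7 ± 7.51) and no CCAAT box. The peak 8024 bp upstream had 9, 16 and 11 (12 ± 3.61), with a CCAAT box 60 bp from its centre and an AP-1 motif within 50 bp. The levels of the 2 peaks overlapped. *Col6a3*, encoding a chain of the microfibrillar type VI collagen, had a peak in intron 1, 9004 bp downstream of the start, with 13, 12 and 5 (10 ± 4.36), no CCAAT box and an AP-1 motif. No peak was annotated to *Col1a2*, *Col3a1*, *Col4a1*, *Col4a2*, *Col5a2*, *Col6a1* or *Col6a2*.

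Of 11 laminin chain genes, *Lama5* alone carried peaks (9.09%, against 19.0% of all protein-coding genes). Its 5 peaks were the most of any matrix or adhesion gene. The laminin α5 chain is a component of basement membranes. In intron 2, the peak 7985 bp downstream of the start had 22, 22 and 32 (25.3 ± 5.77), that 9710 bp downstream 10, 3 and 10 (7.67 ± 4.04), and that 6858 bp downstream 4, 6 and 4 (4.67 ± 1.15). Upstream of the gene, the peak at 2032 bp had 31, 24 and 20 (25 ± 5.57) and that at 2905 bp had 13, 10 and 12 (11.7 ± 1.53). The 2 higher peaks, on opposite sides of the gene start and 10017 bp apart, overlapped in level. A CCAAT box was within 50 bp of the centre in the 2 lowest *Lama5* peaks and not in the 3 higher ones. The peak 7985 bp downstream had a box 60 bp from its centre, and the peak 2032 bp upstream had one at 92 bp. The levels of the 5 peaks summed to 74.3, but none was a promoter peak and the RefSeq promoter window held 0 CCAAT boxes. *Lama2*, *Lamb1* and *Lamc1*, encoding chains of the main muscle laminin, carried no peak.

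Of 28 integrin and integrin-like genes, 1 carried a peak (3.57%), against 19.0% of all protein-coding genes. It was *Itgam*, which encodes the αM chain known from myeloid cells, with a peak 3924 bp upstream that had 9, 7 and 3 normalised reads (6.33 ± 3.06) and no CCAAT box. *Itga7* and *Itgb1*, which form the laminin receptor of MuSCs, carried no peak.

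Matrix glycoproteins had peaks at 3 of 6 genes (50%), against 19.0% of all protein-coding genes, but 6 genes are few. *Sparc*, encoding a collagen-binding matricellular protein, had a peak 799 bp upstream with 19, 37 and 19 (25 ± 10.4), where replicate 2 was 1.95-fold above the others, and a peak 5100 bp upstream with 23, 18 and 24 (21.7 ± 3.21). Levels of the 2 *Sparc* peaks overlapped. The nearer *Sparc* peak had a CCAAT box 35 bp from its centre, and the farther had none. These distances refer to the outermost start in GENCODE, and the RefSeq promoter window of *Sparc* lay further downstream, at chr11:55420031-55420330. *Thbs2*, encoding thrombospondin 2, had a peak 9804 bp upstream with 13, 13 and 7 (11 ± 3.46) and a CCAAT box 6 bp from the centre. *Fn1*, encoding fibronectin, had a peak 96 bp upstream with only 4, 1 and 6 (3.67 ± 2.52), of which replicate 2 was below the floor. The *Fn1* peak nevertheless contained a CCAAT box, 112 bp upstream of the start on the strand of the gene. *Thbs1* had no peak.

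ADAMTS proteases and ADAMTS-like proteins made up the largest set, with 8 peaks at 6 of 24 genes (25%). This share was near the 19.0% of all protein-coding genes. *Adamts14*, a procollagen N-propeptidase, had a peak in intron 1, 1161 bp downstream of the start, with 36, 41 and 33 (36.7 ± 4.04), and a peak 4718 bp upstream with 7, 1 and 9 (5.67 ± 4.16). The 2 did not overlap, and the log2 difference was 2.79 ± 1.41 (SD, n = 3). The peak in *Adamts14* was just outside the 1000 bp that define a promoter peak. Its CCAAT box was 59 bp from the centre, which is just outside the 50 bp counted here.

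*Adamts17* had 19, 16 and 22 normalised reads (19 ± 3) at its promoter, 112 bp upstream, and 2 CCAAT boxes on the strand of the gene, 114 and 73 bp upstream of the start. *Adamts4*, an aggrecan-cleaving protease, had 17, 22 and 12 (17 ± 5) at its promoter and no CCAAT box in the peak. *Adamts16* had 18, 16 and 14 (16 ± 2) in intron 3 with a CCAAT box 21 bp from the centre. The higher of the 2 *Adamtsl5* peaks, in intron 7, had 12, 13 and 15 (13.3 ± 1.53) and no CCAAT box. The lower, 328 bp away in a coding exon, had 13, 1 and 3 (5.67 ± 6.43) and 2 CCAAT boxes spaced 15 bp apart. The level of that exonic peak rested on replicate 1. *Adamtsl4*, which had a promoter peak with 7, 1 and 4 (4 ± 3), was among the 3 lowest peaks by mean.

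ADAM proteases, which shed membrane proteins, carried 4 low peaks at 4 of 33 genes (12.1%, against 19.0% of all protein-coding genes). *Adam10*, a sheddase of Notch receptors, had 11, 10 and 5 (8.67 ± 3.21) at its promoter and a CCAAT box 94 bp upstream of the start. *Adam8* had 11, 6 and 5 (7.33 ± 3.21) with a box 1 bp from the centre, and *Adam15* had 13, 3 and 2 (6 ± 6.08) with 3 boxes on the same strand. *Adam17*, the sheddase of TNF, had the lowest level of the group, with 3, 0 and 3 (2 ± 1.73) and no CCAAT box. *Adam12* carried no peak.

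*Timp2*, an inhibitor of matrix metalloproteinases, was the only peak-bearing gene of the 4 inhibitors, and its peak in intron 1, 6271 bp downstream of the start, had 2, 7 and 15 (8 ± 6.56). These *Timp2* values differed 7.5-fold between libraries, so the level is poorly determined. None of 22 matrix metalloproteinase genes, *Mmp2*, *Mmp9* and *Mmp14* among them, had a peak annotated to it, where 19.0% of all protein-coding genes did. None of 5 lysyl oxidase genes, which cross-link collagen, had a peak, but 5 genes are too few to set against that share. *Timp1*, *Timp3* and *Adamts1* had none either.

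**Figure D2:**
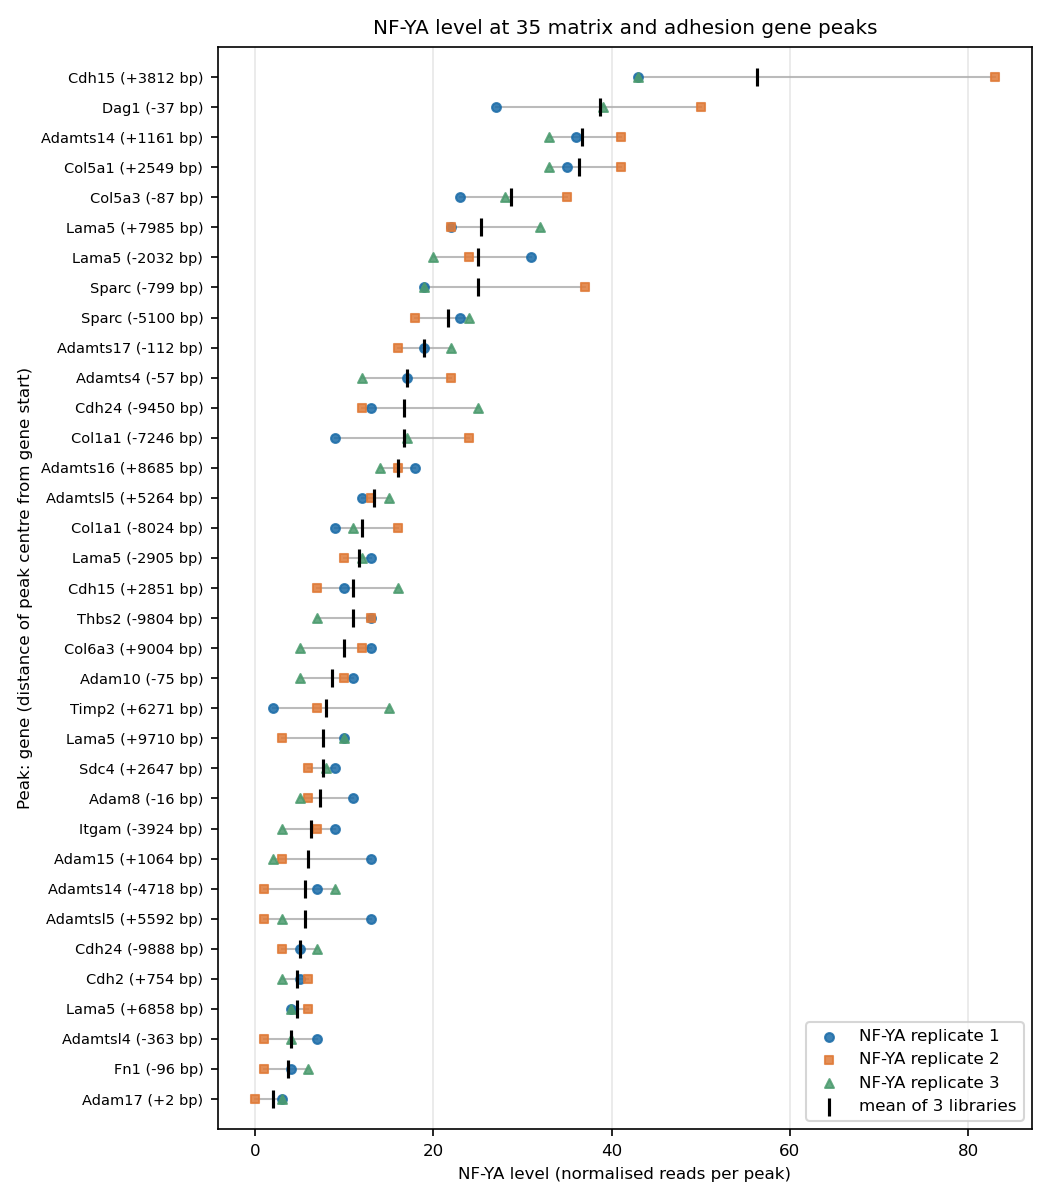
Normalised reads of each of the 35 peaks in NF-YA replicates 1, 2 and 3 (points), with the mean (bar), in order of the mean; grey lines give the range. *Cdh15* leads with a mean of 56.3, most peaks stay below 20, and the ranges of peaks next to each other overlap in all 34 pairs.

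Across the 35 peaks, means ran from 2 to 56.3, and the highest peak with a symbol in the whole table reached 997. The order of neighbouring peaks carries no weight, since for 0 of 34 neighbouring pairs the values of the 3 libraries separated. Split by the quartiles of all peaks with a symbol (9.67, 21.7 and 59), 15 of the 35 fell into the weakest quartile, 12 into the second, 8 into the third and 0 into the strongest.

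The median level of the matrix and adhesion peaks was 13, 12 and 12 normalised reads in replicates 1 to 3, against 21, 22 and 22 for the other peaks. The log2 ratio was -0.69, -0.87 and -0.87 (mean -0.81 ± 0.105, SD, n = 3), lower in 3 of 3 libraries. Among promoter peaks alone the log2 ratio was -1.49, -1.58 and -2.42 (mean -1.83 ± 0.507). Away from promoters it was 0.115, -0.115 and 0 (mean 0 ± 0.115). By median, matrix and adhesion promoter peaks were thus low for promoter peaks, and the remaining ones stood at the level of other peaks away from promoters. In the upper range the remaining ones were lower, with a 90th percentile of 33.03 against 56.6. No test was made, since peaks are not replicates and 3 libraries are too few.

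Among the other genes, promoter peaks were above peaks away from promoters by a log2 ratio of 1.29 ± 0.0817 (SD, n = 3). Matrix and adhesion promoter peaks did not follow this, with log2 ratios of -0.24, -0.26 and -1.12 to the remaining member peaks (mean -0.54 ± 0.499). Replicate 3 contributed most to that mean, which was -0.25 without it. Per kb of peak the ratio was 0.111 ± 0.396 (SD, n = 3), a spread that includes 0, so the direction was not settled. The median peak length was 180 bp, against 227 bp for the other peaks.

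**Figure D3:**
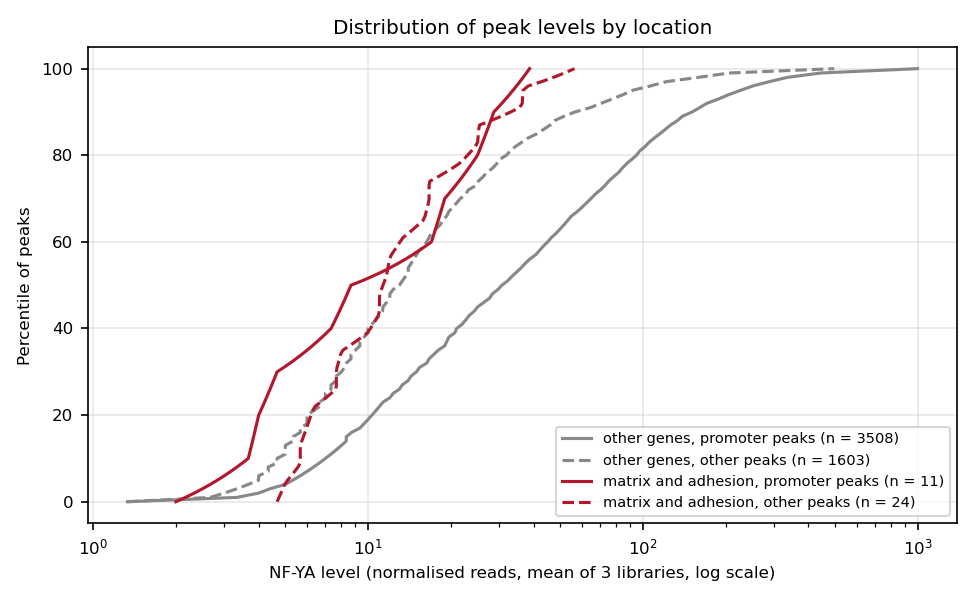
Percentile of peaks against the NF-YA level (mean of 3 libraries, log axis) for promoter peaks (solid) and other peaks (dashed) of matrix and adhesion genes (red) and of other genes (grey). Medians were 8.67 for the solid red, 11.3 for the dashed red and 13 for the dashed grey curve. The solid grey curve lies to the right with a median of 30.7. In the upper range the red curves fall below the dashed grey one, with 90th percentiles of 28.67 (solid) and 33.03 (dashed) against 56.6.

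The weak levels came with a larger spread over the 3 libraries. The median coefficient of variation (CV) was 37.1%, against 21.2% for the other peaks. Restricted to means of 5 to 20 normalised reads, it was 41.7% (n = 21) against 30.2% (n = 2102). The size of this difference depended on the libraries used. Without replicate 2, which had the fewest reads in peaks, the median CV was 24.4% against 16.4%. It was 41.6% against 16.6% without replicate 1, and 28.3% against 18.4% without replicate 3. At means of 5 to 20 it was 25% against 26.5% without replicate 3, so that the difference at matched level turned its direction. Of the 35 peaks, 24 (68.6%, 95% Wilson interval 52 to 81.4) had an SD above that of counting, compared with 54.3% of all peaks with a symbol. Above 3 reads in all libraries were 24 peaks (68.6%), compared with 86.4% of all peaks with a symbol. Across the 35 peaks, Pearson's r of log2(value + 1) was 0.772 between replicates 1 and 2, 0.672 between 1 and 3, and 0.791 between 2 and 3. The same r over the other 5111 peaks was 0.914, 0.932 and 0.929. These are correlations across peaks, which share a library and are not independent replicates.

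CCAAT boxes were present at the peak centres. Of the 35 peaks, 18 had a CCAAT on either strand at most 50 bp from the centre (51.4%, 35.6 to 67), where the share of all peaks with a symbol was 59.0%. In windows of the same width placed 1000 bp to either side, the share was 17.1% and 8.57% for these peaks and 11.8% and 12.7% for the others. By location, 7 of 11 promoter peaks (63.6%) and 11 of 24 remaining peaks (45.8%) had a CCAAT, against 65.4% and 45.2% in the other genes. The lower share over all 35 peaks thus accompanied the larger part that lay away from promoters. In the whole peak, 23 of 35 (65.7%) had a CCAAT, against 72.4%.

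The 35 peaks held 31 CCAAT boxes, of which 24 were within 50 bp of a centre and 15 on the strand of the gene. A longer NF-Y consensus, with 2 purines before and G or C and a purine after the box, was met by 9 boxes, among them those of *Dag1*, *Adamts14*, *Col5a3*, *Sparc* and *Adam8* printed above. Boxes per kb of peak were 4.75, against 5.33 in the other peaks. The 5 peaks of highest mean all contained a CCAAT, as did 11 of the highest 15 and 9 of the lowest 15. Peaks with a box within 50 bp of the centre had a median level of 11 (n = 18) and those without 11.7 (n = 17). With the box counted anywhere in the peak, the medians were 12 with (n = 23) and 8.17 without (n = 12), so the order depended on the window, and longer peaks have more room for a box.

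**Figure D4:**
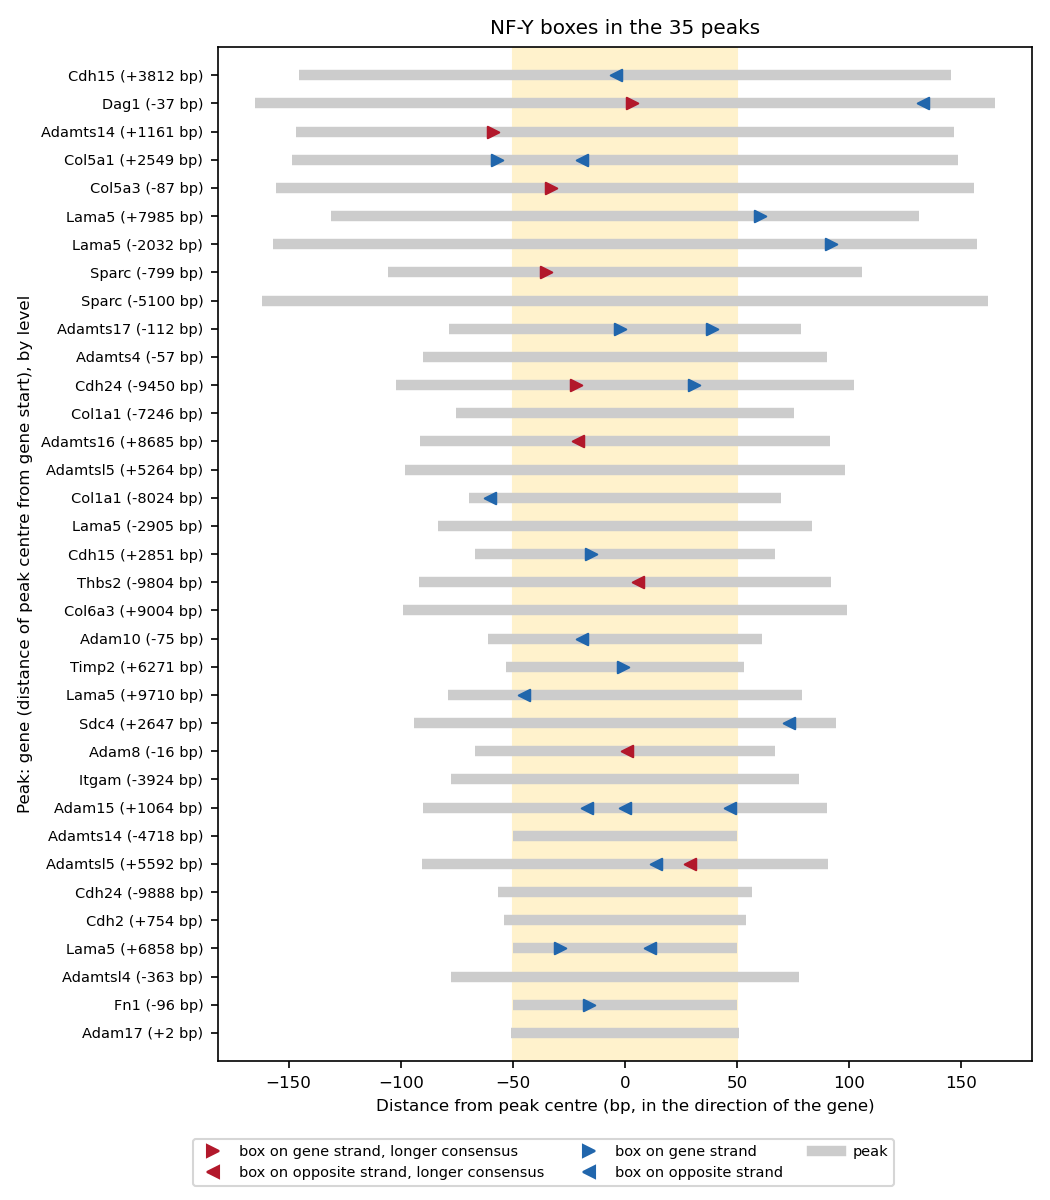
CCAAT boxes (triangles, pointing right on the strand of the gene and left on the opposite strand, red for the longer consensus) in the 35 peaks (grey bars), by distance from the peak centre in bp, in order of mean level. Of the 31 boxes, 24 lie within the shaded 50 bp on each side of the centre, and 12 peaks have no box.

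Other motifs were searched in the same central windows on both strands. The AP-1 motif TGANTCA was found in 4 of 35 peaks (11.4%) against 6.22% of the other peaks, the TEAD motif GGAATG in 4 (11.4%) against 6.03%, and the E-box CAGCTG in 7 (20%) against 9.45%. The E-box lay in peaks of *Col5a3*, *Lama5*, *Cdh15*, *Sdc4*, *Itgam* and *Adamts14*. Away from promoters these shares were 16.7%, 12.5% and 25%, against 14.8%, 9.61% and 18.2% in other genes, all inside the Wilson intervals of the 24 peaks. The GC box GGGCGG was found in 25.7% against 32.5%, and the RUNX motif TGTGGT in 2.86% against 6.24%. A match is a description of the letters and does not show that the factor was bound.

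**Figure D5:**
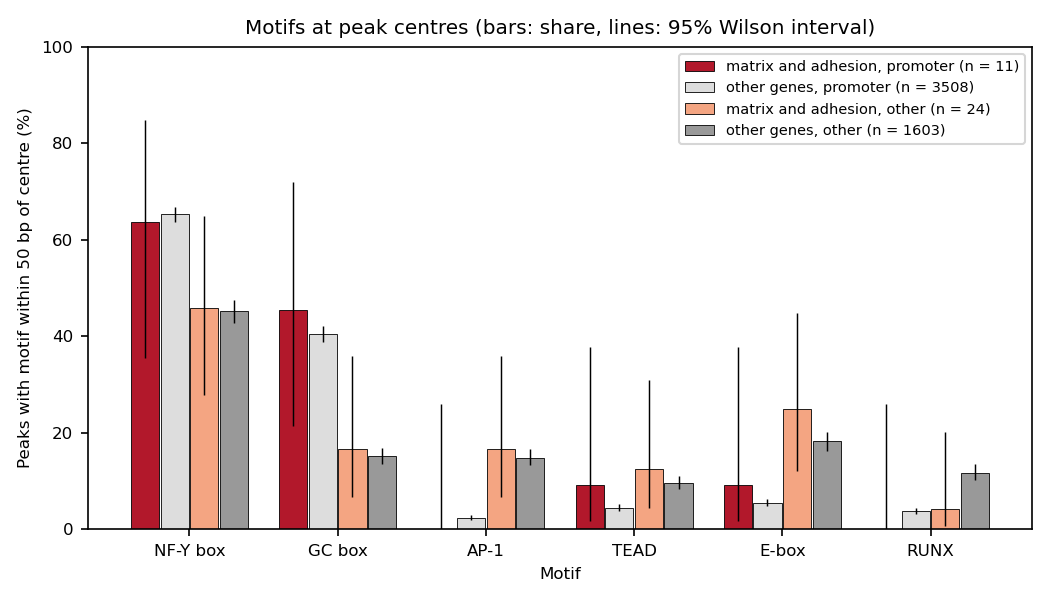
Share of peaks (%) with each motif within 50 bp of the peak centre, for promoter and other peaks of matrix and adhesion genes (dark and light red) and of other genes (light and dark grey), with 95% Wilson intervals. For the NF-Y box the shares are 63.6% and 65.4% at promoters and 45.8% and 45.2% elsewhere.

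Seen from the genes, 211 annotated protein-coding genes matched the rule (among them *Col4a3bp* and *Loxhd1*, which encode no collagen and no lysyl oxidase and had no peak), and 25 of them (11.8%, 95% Wilson interval 8.16 to 16.9) carried a peak, whereas 19.0% of 21951 protein-coding genes did. A promoter peak was present at 5.21% of the genes matching the rule and at 14.8% of all protein-coding genes. The share with a peak was 9.09% of collagens, 3.57% of integrins, 13% of cadherins, 12.1% of ADAM proteases and 25% of ADAMTS genes. Members of these families share sequence and often lie in clusters, so the genes are not independent of each other. Of 40 stem cell and matrix genes listed for description, 15 carried a peak and 25 did not.

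The promoter sequence was compared with this pattern. In RefSeq promoter windows, CCAAT was present in 42.1% of 16522 matched protein-coding genes and in 76.9% of the 2581 with a promoter peak. Of 136 matched genes under the rule, 48 (35.3%, 27.8 to 43.6) had a CCAAT. Among them, the share was 5 of 8 with a promoter peak and 39 of 116 without any peak (33.6%). Genes with a CCAAT but no peak included *Col1a2* with 2 boxes, and *Col4a1*, *Col4a2* and *Lamb1* with 1 each. *Col3a1* and *Itgb1* had 0 boxes and no peak. A box in the promoter was thus found both with and without a peak.

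Genes that act together with these families but fall outside the rule were counted for context, 73 in all. Of these, 28 carried a peak (38.4%), against 19.0% of all protein-coding genes. The lists were chosen with earlier results of these data known, so the choice itself may have raised this share. In collagen processing, 7 of 13 genes had a peak (53.8%). *P4hb*, a subunit of the prolyl hydroxylase that modifies collagen in the endoplasmic reticulum, reached 350, 294 and 303 normalised reads (316 ± 30.1) at its promoter with 2 CCAAT boxes. *Serpinh1*, the collagen chaperone, had 201, 183 and 213 (199 ± 15.1) 7040 bp upstream. Every library at either site was above 83, the highest value of the 35 matrix and adhesion peaks. These sites were the strongest of the list, whose 9 peaks had a median of 12 over their mean levels. The same median was 11 for the matrix and adhesion peaks. It was 20.3 for the peaks of all lists together and 21.7 for the other peaks with a symbol.

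Peaks were also found at cytoplasmic partners of the receptors. Of 12 integrin adaptors 7 carried a peak (58.3%), led by *Vcl* (vinculin) with 136, 92 and 138 (122 ± 26). Most adaptor peaks were far weaker, with a median of 13.3 over the mean levels of 9 peaks. Of 5 cadherin partners, *Jup* (plakoglobin) had 122, 137 and 129 (129 ± 7.51) and *Ctnnd1* (p120 catenin) had 129, 109 and 145 (128 ± 18). In the dystroglycan complex 4 of 14 genes had a peak (28.6%), among them *Pomgnt1*, a glycosyltransferase acting on dystroglycan, with 31, 22 and 32 (28.3 ± 5.51). Basement membrane genes and proteoglycans had peaks at 2 of 9 (22.2%), with *Nid2* (nidogen 2) at 72, 74 and 68 (71.3 ± 3.06), elastic and matricellular genes at 3 of 14 (21.4%), and cell adhesion molecules at 3 of 6 (50%). The dystroglycan, basement membrane and matricellular shares were near that of all protein-coding genes. The lists are of unequal size and hold genes of many functions, and no test of their difference was made.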

How the data were processed

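NF-YA CUT&RUN libraries (replicates 1, 2 and 3) were analysed. Per their methods and processing notes, the authors trimmed reads with Trimmomatic 0.39, aligned them to mm10 with STAR 2.7.9a, removed duplicates with Picard 2.25.5, called peaks with the IgG libraries as control, merged them into a common set, counted reads with featureCounts and normalised with DESeq2 1.30.0. The deposited values have the unit score: size-factor-normalised and rounded read numbers, not corrected for length. Peaks were called on the libraries whose levels are reported. Size factors hide a change common to all peaks. The table had 0 sample columns that could not be assigned.

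The value of 1 read per library was estimated by maximum likelihood from the number of peaks at each whole number. The model used how many read counts round to that number. It was tested on simulated data (largest error 0.0182% in 6 simulations of 9056 peaks). Counts of single peaks were not recovered, so no count model was used. The counting SD is the square root of the mean step times the mean. Distances were taken from peak centre to gene start in GENCODE M21 and were within 1 bp of the listed ones in 35 of 35 peaks. Positions count from 1. RefSeq promoter windows were matched by symbol, and sequence was read from GRCm38.p6, the assembly behind mm10.

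Members and gene lists were chosen with earlier results of these data known. Peaks named with all values were the 15 of highest mean, other peaks of their genes, the highest of each role, those of a preset gene list and the 3 lowest. *Adam8* and *Adam15*, the genes outside the rule and peaks listed under another gene were named after their values were seen. *Itgb3bp* was counted with the integrin binding proteins. All results are descriptions, with 95% Wilson intervals for shares. For shares of peaks, these intervals treat peaks as independent, although 7 member genes carried more than 1 peak and 1 gene carried 5. Such intervals may thus be too narrow. Alternatives concerned distances, windows, filters, scaling, length and each replicate in turn. Python 3.11.15, numpy 2.4.6, scipy 1.17.1, pandas 2.3.3 and matplotlib 3.10.9 were used.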

Additional observations from a re-analysis of the deposited data

How the results depend on the processing

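Over 37 alternatives on 8 results, 28 left the result within its error or on its side, 8 moved it further and 1 turned its direction. The promoter share was 60% within 5000 bp, where the other peaks stood at 85.8%. The share with CCAAT was 71.4% within 100 bp and 22.9% for the longer consensus, against 71.5% and 30.3% in the other peaks. With means of at least 10, the median level was 19.3. The log2 ratio of members to other peaks was -0.58 per kb, -1.83 at promoters and 0 elsewhere. The log2 ratio of promoter to other members turned to 0.111 ± 0.396 (SD, n = 3) per kb. A promoter peak was present at 5.21% of genes under the rule. Without each replicate in turn, the median level was 12 to 12.5, the ratio to other peaks -0.87 to -0.78, the promoter ratio -0.69 to -0.25 and the median CV 24.4% to 41.6%. Leaving out peaks at a start of another gene was chosen after the data were seen and gave a promoter share of 26.7%, a CCAAT share of 53.3% and a ratio of -0.755. If a further character had to follow the name stem, 26 peaks at 20 genes remained. The causes of these shifts were not tested.

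No paired analysis was possible because values were analysed for a single group, NF-YA, and no test was made. Low read numbers in peaks limit the low peaks most, with 8 members at or below 3 reads in replicate 2.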

Other observations

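At the starts of 7 further genes that match the rule, 8 peaks were listed under another gene or under none. The highest was at *Adam9*, encoding a membrane-anchored protease, where a peak 250 bp from the gene start, listed under the neighbouring *Tm2d2*, had 110, 129 and 118 normalised reads (119 ± 9.54, SD, n = 3) and a CCAAT box within 50 bp of its centre. Every library there was above the highest value of any matrix or adhesion peak. A second peak, 689 bp from the *Adam9* start, had only 4, 9 and 3. The *Adam9* and *Tm2d2* starts could not be told apart as the site of the peak.

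The other 6 genes had peaks at starts of alternative transcripts, far from the outermost gene start. They were *Adam11* with 48, 24 and 31 (34.3 ± 12.3), *Col6a5* with 19, 19 and 11 (16.3 ± 4.62), *Cdh23* with 12, 12 and 16 (13.3 ± 2.31), *Adamtsl1* with 9, 7 and 15 (10.3 ± 4.16), *Cdh13* with 5, 9 and 5 (6.33 ± 2.31) and *Lamb3* with 10, 3 and 6 (6.33 ± 3.51). CCAAT lay within 50 bp of the centre in the peaks of *Adam11*, *Col6a5*, *Cdh13* and *Lamb3*, and not in those of *Cdh23* and *Adamtsl1*. Counting peaks within 1000 bp of any transcript start, whatever gene was listed, 20 of the 211 genes under the rule had a peak (9.48%), against 19.1% of all protein-coding genes.

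*Ncam1*, an adhesion molecule of the immunoglobulin family outside the rule, had 3 peaks downstream of its start and no promoter peak. They lay 1624 bp from the start with 38, 53 and 33 (41.3 ± 10.4), 2119 bp with 19, 34 and 38 (30.3 ± 10) and 5997 bp with 24, 28 and 34 (28.7 ± 5.03), and their values overlapped.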
